A study of Mus musculus with 59 samples.

Results

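The m6A readers and erasers followed here in mouse embryonic stem cells are 10 genes: the YTH domain readers Ythdc1, Ythdc2, Ythdf1, Ythdf2 and Ythdf3, the demethylases Fto and Alkbh5, the mRNA-binding proteins Igf2bp1 and Igf2bp3, and the nuclear ribonucleoprotein Hnrnpa2b1. They were chosen by name, with earlier results of these data known, and make up 10 of the 39017 gene identifiers of the RNA tables. Their gene spans (mouse build mm10) overlap 159 of the 546202 windows of 5 kb in the chromatin tables. All 10 genes passed the filter on low counts in every RNA and chromatin comparison that was tested.

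N6-methyladenosine (m6A) is a methyl mark set on adenosines of nascent RNA by a nuclear complex whose catalytic subunit is METTL3. Reader proteins bind the mark through a YTH domain or other RNA-binding folds and steer splicing, export, translation or decay of the transcript, while the demethylases, called erasers, can remove it. In embryonic stem cells the mark is best known for shortening the life of pluripotency transcripts, and DGCR8, the partner of the nuclease Drosha in the Microprocessor complex that cuts microRNA hairpins out of primary transcripts, has been linked to methylated RNA.

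The study had 59 samples, 35 of RNA and 24 of chromatin immunoprecipitation (ChIP), all from embryonic stem cells of a 129xC57Bl6 hybrid background grown in serum and LIF on gelatin. In 23 RNA libraries, cells with Rosa26:CRE and either DGCR8 Flox/Flox or Drosha Flox/Flox alleles were given 0.5 µM 4-hydroxytamoxifen (4OHT) for 24, 48 or 96 h or were left untreated for the same time, with 2 libraries a group and 1 for Drosha 4OHT at 96 h. In 12 RNA libraries, parental cells (parental 1 and 2, carrying Rosa26:BirA and DGCR8 FLAG/Avi) and 4 Mettl3 knockout lines with the same alleles (1d1, 3xU, 1d2 and 2c4d) were taken either at 37 °C or following 1 h of heat at 42 °C. In the ChIP libraries, biotin-tagged METTL3, DGCR8, Drosha or Dicer was pulled down on streptavidin from crosslinked chromatin, and the reads were compared with those of input chromatin. DGCR8 was also taken from Mettl3 knockout and wild type cells, and DGCR8 and METTL3 cells of the heat set were taken at 37 °C or following 1 h of heat at 42 °C. No line without floxed alleles received 4OHT, and no precipitate of untagged cells was analysed here. No input came from heated cells, so ratios at 42 °C use the 37 °C input, and none came from Mettl3 knockout cells. The sources do not say whether the 2 libraries of a group, parental 1 and 2, or the METTL3 cells H4 and H5 of the heat set were grown or derived independently. So the p-values reflect the spread among these libraries alone, and that spread may be technical.

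Read totals, in units of 1e6 reads, were 9.58 to 12.6 in the floxed RNA libraries, 7.10 to 13.6 in the heat RNA libraries and 13.7 to 86.1 in the ChIP libraries. The 6 embryonic stem cell markers (Pou5f1, Nanog, Sox2, Esrrb, Zfp42 and Dppa5a) summed to 1616 to 3460 CPM, that is, reads per 1e6 reads, in the floxed libraries and 1834 to 3313 CPM in the heat libraries, and none of them was at 0. In all 35 RNA libraries blood markers summed to at most 0.754 CPM and milk protein genes to at most 2.05 CPM, and fibroblast markers ran from 3.18 to 46.4 CPM in the floxed and from 4.32 to 13.5 CPM in the heat libraries. In the libraries labelled Drosha Flox/Flox with 4OHT, Drosha RNA fell by 1.68, 2.12 and 2.28 on the log2 scale at 24, 48 and 96 h. In the DGCR8 Flox/Flox line, Dgcr8 RNA was higher in the libraries labelled 4OHT, by 1.27, 0.95 and 1.02. Dgcr8 RNA was also higher with 4OHT in the Drosha line, by 1.84, 1.86 and 1.38 at the same hours. Counts over the whole gene need not show the loss of floxed exons. The labels of the DGCR8 line could thus not be checked by its target. The 4OHT pair of the DGCR8 line at 96 h stood apart, with a chi-square of 126 per gene between its libraries, against 4.16 to 14.7 in the other floxed pairs. Some source names conflicted with titles, and the titles were followed.

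Promoters were printed because both the RNA and the chromatin measurements bear on the gene starts. RefSeq promoter entries (build GRCm38.p6, the 250 bases before the start) matched 7 of the 10 genes: Ythdc1, Ythdf1, Ythdf2, Fto, Alkbh5, Igf2bp3 and Hnrnpa2b1, the last with 2 starts. The set below holds the 2 readers whose RNA was higher in Mettl3 knockout lines and the Hnrnpa2b1 start with a heat shock element core. They are Ythdc1 at chr5:86804016-86804265 on the plus strand, Ythdf2 at chr4:132212257-132212506 on the minus strand and Hnrnpa2b1 at chr6:51469846-51470095 on the minus strand. Capitals mark matches, on either strand, to the GC box GGGCGG, the CCAAT box CCAAT and the heat shock element core GAANNTTC.
Ythdc1: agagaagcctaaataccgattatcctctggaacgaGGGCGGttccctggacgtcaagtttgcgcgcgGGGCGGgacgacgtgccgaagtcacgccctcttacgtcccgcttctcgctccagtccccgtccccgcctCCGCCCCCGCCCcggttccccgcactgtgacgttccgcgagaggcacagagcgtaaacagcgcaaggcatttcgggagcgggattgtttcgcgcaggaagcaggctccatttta
Ythdf2: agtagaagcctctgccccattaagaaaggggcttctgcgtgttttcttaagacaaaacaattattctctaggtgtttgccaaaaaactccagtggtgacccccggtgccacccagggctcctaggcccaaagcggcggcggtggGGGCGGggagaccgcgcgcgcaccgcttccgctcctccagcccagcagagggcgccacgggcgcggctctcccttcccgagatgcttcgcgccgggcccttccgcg
Hnrnpa2b1: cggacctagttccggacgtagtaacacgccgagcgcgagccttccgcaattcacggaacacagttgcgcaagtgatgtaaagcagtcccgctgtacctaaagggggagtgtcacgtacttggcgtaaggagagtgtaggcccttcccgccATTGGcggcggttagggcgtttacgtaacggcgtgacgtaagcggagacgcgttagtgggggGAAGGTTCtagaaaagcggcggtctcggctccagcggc

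The Ythdc1 stretch held 4 GC boxes and 30 CpG dinucleotides at 63.2% GC, and the Ythdf2 stretch 1 GC box and 22 CpG at 64.0% GC. The Hnrnpa2b1 stretch held 1 CCAAT box, read as ATTGG on the printed strand, 1 heat shock element core, GAAGGTTC, and 28 CpG at 59.6% GC. Over the 8 entries the CpG count ran from 14 to 30, against a median of 6 over all 32851 RefSeq mouse promoters of the same length, whose median GC content was 52.4%. Of all those promoters, 32.7% held a GC box, 33.8% a CCAAT box and 6.69% a heat shock element core. Ythdf1 held 1 CCAAT box and 3 GC boxes, Alkbh5 1 CCAAT box and 2 GC boxes, and Igf2bp3 1 CCAAT box. The Fto stretch held none of the 3 motifs. These matches are letters in a window and say nothing of binding.

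By median over the floxed libraries, Hnrnpa2b1 was the most abundant of the 10 genes and Fto the least. Levels per length were taken as CPM per kb of exon, so that genes could be set against each other. Hnrnpa2b1, a nuclear RNA-binding protein reported to link m6A to microRNA processing and splicing, had a median of 191 CPM per kb over the 23 floxed libraries (lowest 143, highest 229), above 98.6% of 13982 expressed genes. Igf2bp1, an oncofetal protein that binds mRNAs and protects them from decay, followed at 93.6 (42.0 to 142), above 96.4% of those genes.

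The cytoplasmic YTH readers came next. Ythdf1, known for promoting translation of methylated mRNA, had a median of 37.8 CPM per kb (27.3 to 53.4), and Ythdf3, which acts with both of its paralogues, 31.6 (24.8 to 39.3). Ythdf2, which recruits the CCR4-NOT deadenylase to methylated mRNA, had 27.1 (17.7 to 33.6), beside Igf2bp3, the second oncofetal paralogue here, at 27.3 (20.6 to 32.3). Alkbh5, a nuclear m6A demethylase, stood at 23.0 (14.9 to 29.6) and Ythdc1, the nuclear YTH reader that acts in splicing and export, at 15.4 (12.8 to 18.6).

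Ythdc2, a YTH protein with a helicase domain known from meiosis, stood at 7.02 CPM per kb (5.25 to 7.99) and Fto, a demethylase of m6A and of the cap-adjacent m6Am, at 5.46 (3.06 to 7.22), near the middle of all expressed genes (above 53.6% and 47.5% of them). Neighbours in this order mostly overlapped. Only the ranges of Hnrnpa2b1 and of Ythdc1 lay apart from the gene below them. Compared within each library, Igf2bp1 lay above Ythdf1, Alkbh5 above Ythdc1 and Ythdc2 above Fto in all 23. Ythdf1 lay above Ythdf3 in 19, Ythdf3 above Igf2bp3 in 20, Ythdf2 above Alkbh5 in 16 and Igf2bp3 above Ythdf2 in 11.

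In the 12 heat-set libraries the order was Hnrnpa2b1 213 CPM per kb (192 to 245), Igf2bp1 114 (89.0 to 164), Ythdf2 60.4 (25.7 to 68.6), Ythdf1 57.9 (34.4 to 76.1), Ythdc1 33.9 (14.9 to 46.6), Ythdf3 33.0 (21.6 to 54.6), Alkbh5 28.6 (20.2 to 38.6), Igf2bp3 24.9 (18.4 to 29.0), Ythdc2 5.05 (3.29 to 6.62) and Fto 4.09 (3.45 to 9.00). Here the ranges of Hnrnpa2b1, Igf2bp1 and Igf2bp3 did not reach those of the next gene. Within libraries Ythdf1 lay above Ythdc1 in all 12, but Ythdf2 above Ythdf1 in only 4 and Ythdc1 above Ythdf3 in only 5. Ythdf3 lay above Alkbh5 in 8, Alkbh5 above Igf2bp3 in 9 and Ythdc2 above Fto in 7. The wide ranges of Ythdc1 and Ythdf2 came from parental cells at the low end and Mettl3 knockout lines at the high end. The 2 sets are separate count tables and their levels were not tested against each other.

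**Figure D1:**
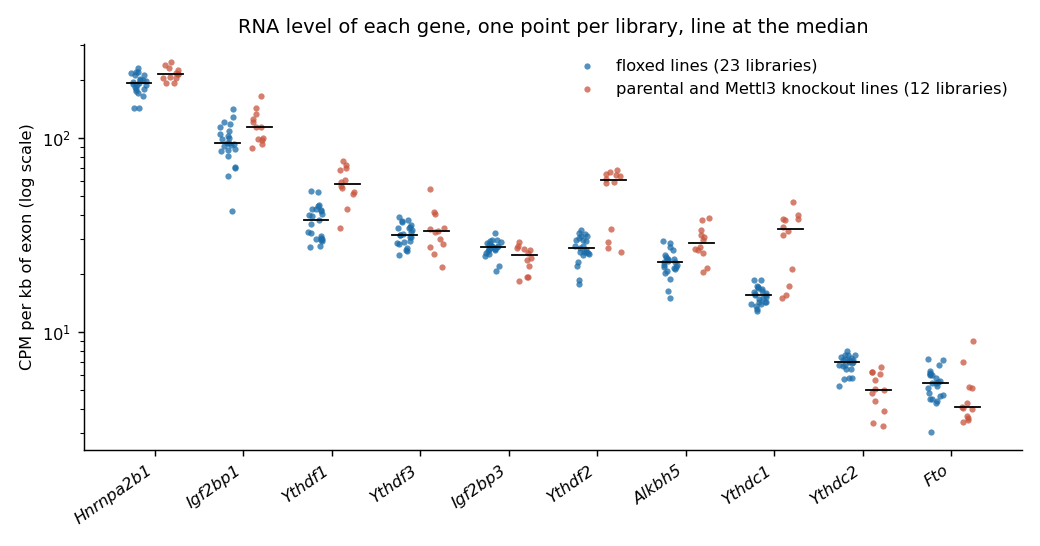
Level of each of the 10 genes in CPM per kb of exon (log axis), 1 point a library and a line at the median, for the 23 floxed and the 12 heat-set RNA libraries. Hnrnpa2b1 lies highest in both sets, with medians of 191 and 213, and Fto lowest, with medians of 5.46 and 4.09.

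Ythdc1 and Ythdf2 RNA were 1.85-fold to 2.35-fold higher in the Mettl3 knockout lines than in parental cells, at both temperatures, while the other 8 genes did not pass the test. The comparison asks how the RNA of readers and erasers stands in cells whose methyltransferase gene is disrupted. Values are CPM scaled by the trimmed mean of M-values (TMM). Mettl3 itself stood at 71.5 and 69.2 in parental 1 and 2 at 37 °C and at 40.8, 28.6, 21.7 and 29.2 in lines 1d1, 3xU, 1d2 and 2c4d, a log2 difference of -1.23 ± 0.25 (± SE, edgeR quasi-likelihood test, adjusted p = 0.0439). A disrupted gene can still be transcribed, and Mettl3 RNA was present in every knockout library.

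Ythdc1 at 37 °C stood at 180.2 and 171.4 CPM in parental 1 and 2, and at 379.9, 468.2, 401.5 and 403.7 in lines 1d1, 3xU, 1d2 and 2c4d. After heat it stood at 210.0 and 170.5 in parental cells and at 356.0, 395.2, 343.0 and 315.6 in the knockout lines, in the same order. Every knockout library lay above every parental library at both temperatures. The log2 difference was 1.23 ± 0.18 at 37 °C (2.35-fold, edgeR adjusted p = 0.0171) and 0.89 ± 0.17 at 42 °C (1.85-fold, adjusted p = 0.0471).

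Ythdf2 at 37 °C stood at 134.4 and 165.3 CPM in parental cells and at 243.6, 272.5, 321.0 and 304.9 in the knockout lines. After heat the values were 113.5 and 137.4 against 292.0, 290.9, 306.8 and 261.4. Again the groups did not overlap. The log2 difference was 0.93 ± 0.18 at 37 °C (1.91-fold, edgeR adjusted p = 0.0425) and 1.20 ± 0.19 at 42 °C (2.29-fold, adjusted p = 0.0301).

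So 2 of 10 members were called at each temperature, where 0.902% of 15635 genes were called at 37 °C and 0.64% at 42 °C. The median log2 difference of the 10 genes was 0.14 at 37 °C and 0.13 at 42 °C, against 0.01 and 0.00 over all genes tested. Both calls rest on few libraries, and the 2 temperatures share the same lines. With only the compared groups in the fit, neither gene was called (adjusted p = 0.0785 and 0.132 for Ythdc1 and Ythdf2 at 37 °C, 0.152 and 0.0958 at 42 °C). Without parental 1 the adjusted p at 37 °C was 0.202 for Ythdc1 and 0.472 for Ythdf2, and without parental 2 it was 0.225 and 0.236, with log2 differences over all single omissions of 1.17 to 1.29 and 0.80 to 1.10. Ythdf2 at 37 °C was also lost without 3xU (0.0964), 1d2 (0.0679) or 2c4d (0.0973). At 42 °C Ythdc1 was lost without any single library (adjusted p from 0.0581 to 0.321, log2 difference 0.75 to 1.07), and Ythdf2 was called only without 1d1 (0.0423) or 2c4d (0.0467), with log2 differences of 1.09 to 1.35.

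Markers of another cell type moved with the same contrast. The 5 primitive endoderm markers (Gata4, Gata6, Sox17, Dab2 and Pdgfra) summed to 5.93 to 10.6 CPM in the 8 knockout libraries and to 28.1 to 34.4 CPM in the 4 parental libraries. The 3 mesoderm markers summed to 4.9 to 13.9 against 2.9 to 4.8 CPM, the 4 neuroectoderm markers to 47.8 to 140 against 56.6 to 81.5 CPM, and the stem cell markers to 1834 to 3167 against 2989 to 3313 CPM. Their part in the result was not tested. In bulk RNA, fewer cells of a type and less RNA per cell cannot be told apart.

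The other YTH genes stayed within the spread of the lines. Ythdf1 stood at 183.8 and 151.5 CPM in parental cells and 212.3, 219.5, 178.0 and 207.1 in the knockout lines at 37 °C, with 189.8 and 125.9 against 250.5, 239.7, 170.5 and 180.6 after heat. Ythdf3 stood at 177.5 and 139.2 against 161.8, 150.3, 114.1 and 172.7 at 37 °C, and at 208.0 and 156.2 against 280.0, 208.3, 147.6 and 165.2 after heat. Ythdc2 stood at 42.0 and 33.5 against 35.9, 37.9, 32.9 and 28.2 at 37 °C, and at 29.4 and 27.2 against 35.5, 38.3, 20.8 and 20.6 after heat. The groups of these 3 genes overlapped at both temperatures, and for Ythdf1 at 37 °C the overlap was parental 1 (183.8) above line 1d2 (178.0). Their largest difference was that of Ythdf1 after heat, 0.41 ± 0.23 (edgeR adjusted p = 0.393).

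Among the erasers, Alkbh5 stood at 154.2 and 135.9 CPM in parental cells and at 206.1, 183.7, 163.7 and 167.6 in the knockout lines at 37 °C, a difference of 0.31 ± 0.20 that was not called (edgeR adjusted p = 0.483) although the groups did not overlap. After heat Alkbh5 stood at 172.2 and 133.8 against 229.3, 201.1, 185.0 and 152.3, with overlap. Fto stood at 67.5 and 50.8 against 107.1, 52.2, 47.2 and 57.6 at 37 °C, and at 65.8 and 52.0 against 90.3, 52.5, 45.0 and 50.3 after heat. Line 1d1 had the highest Fto value at both temperatures, and the other 3 knockout lines lay below the higher parental value.

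Igf2bp3 was lower in every knockout library than in both parental libraries of the same temperature, but was not called. It stood at 127.1 and 125.4 CPM against 72.9, 113.1, 118.2 and 97.0 at 37 °C (log2 difference -0.33 ± 0.21, edgeR adjusted p = 0.481), and at 115.8 and 116.0 against 83.2, 102.0, 111.3 and 80.7 after heat (-0.30 ± 0.21, adjusted p = 0.532). Igf2bp1 stood at 1228 and 1030 against 1452, 1246, 961.7 and 1129 at 37 °C, and at 1062 and 951.5 against 1366, 1169, 957.7 and 865.9 after heat. Hnrnpa2b1 stood at 792.5 and 835.7 against 914.5, 813.7, 902.0 and 938.5 at 37 °C, and at 841.5 and 918.0 against 864.0, 833.6, 975.2 and 900.8 after heat. Igf2bp1 and Hnrnpa2b1 overlapped between the groups at both temperatures.

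**Figure D2:**
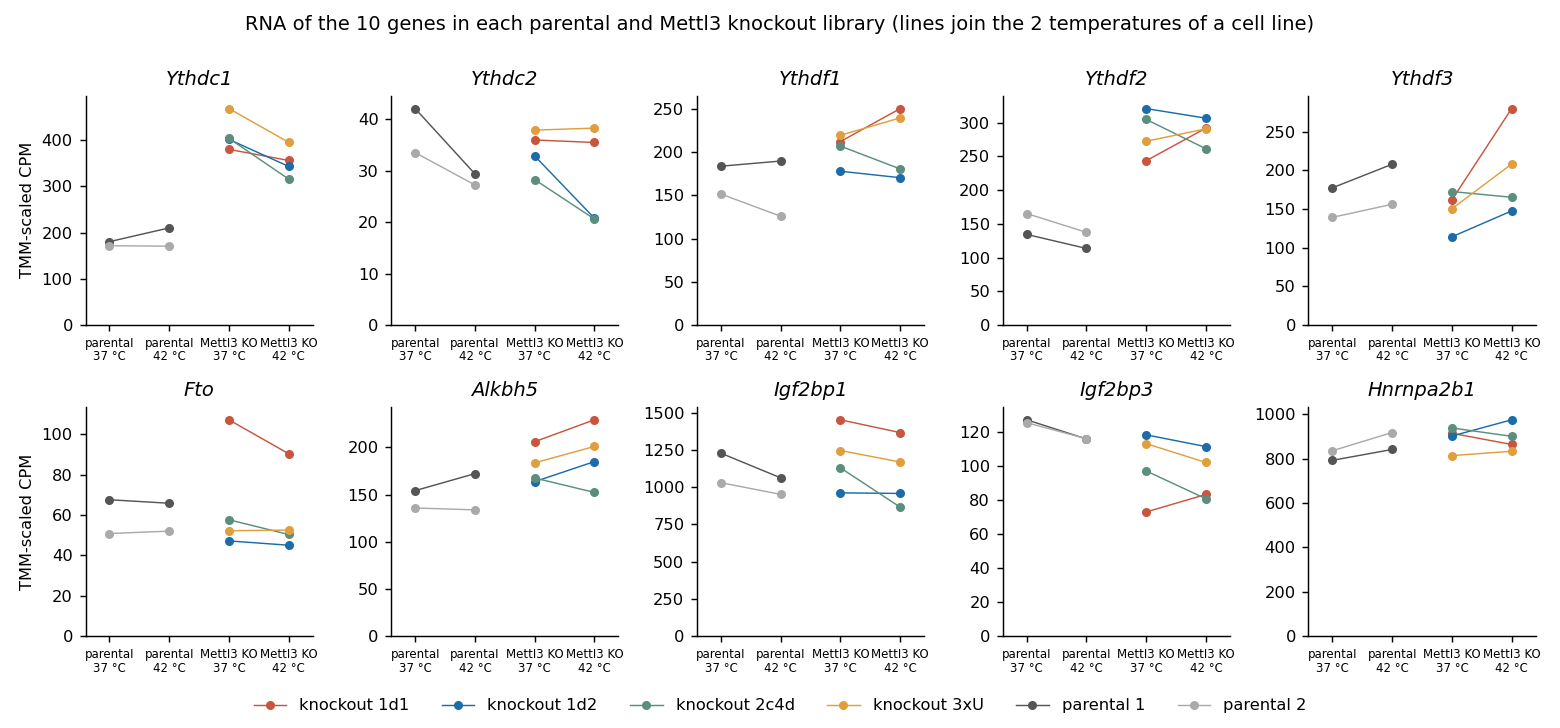
TMM-scaled CPM of each gene in the 12 heat-set RNA libraries, 1 point a library, for parental cells and Mettl3 knockout lines at 37 °C and after heat. The knockout points of Ythdc1 (315.6 to 468.2) and Ythdf2 (243.6 to 321.0) lie above all parental points (170.5 to 210.0 and 113.5 to 165.3), and the Igf2bp3 points lie below the parental ones of the same temperature.

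After 1 h at 42 °C the RNA of 0 of the 10 genes was called changed. In parental cells 0 members were called, where 0.0192% of all genes were (3 of 15635, or 119 with the cell line as a block), and the log2 changes ran from -0.42 for Ythdc2 to 0.20 for Ythdf3. In the knockout lines 0 were called, where 0.185% of all genes were (29, or 1058 with the line as a block), with changes from -0.23 for Ythdc2 to 0.42 ± 0.22 for Ythdf3 (unadjusted p = 0.0756). With the line as a block the nearest to the threshold in the knockout lines were Ythdf3 (0.39 ± 0.12, edgeR adjusted p = 0.0668) and Ythdc1 (-0.23 ± 0.078, adjusted p = 0.105). Within lines, Igf2bp1 was lower after heat in all 6 lines and Ythdc1 in all 4 knockout lines, and Igf2bp1 was not called with the block either (adjusted p = 0.575 in parental cells and 0.34 in knockout lines). The heat effect itself did not pass a test of a difference between knockout and parental cells for any gene of the genome (0.0% called by edgeR, with 208 of 15635 genes at an unadjusted p under 0.05 and 5 called by DESeq2). That difference was -0.34 ± 0.24 for Ythdc1 and 0.27 ± 0.25 for Ythdf2. Over all genes 425 had an unadjusted p under 0.05 for heat in parental cells and 788 in the knockout lines, 0 of them members, and DESeq2 called 31 and 107 genes, again 0 of them members.

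In the floxed lines 1 gene was called, Igf2bp1, which fell after 96 h of 4OHT in the Drosha line. The comparison asks how the 10 genes respond when a Microprocessor subunit is deleted. At 96 h Igf2bp1 stood at 713.5 CPM in the single Drosha 4OHT library and at 1129.4 and 1162.1 in the untreated libraries. The treated value lay below both controls, with a log2 change of -0.68 ± 0.14 (0.622-fold, edgeR adjusted p = 0.00297), with the lone library assumed to vary like the other groups. That is 1 of 10 members, where 23.7% of 16262 genes were called. Without either control library the log2 change was -0.71 or -0.66, still called.

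At 24 h the Drosha line had 843 and 916 CPM of Igf2bp1 untreated and 892 and 869 with 4OHT, and at 48 h 1036 and 1115 against 1305 and 1017, overlapping at both times. In the DGCR8 line Igf2bp1 stood at 695 and 818 untreated against 885 and 837 in the libraries labelled 4OHT at 24 h, at 901 and 978 against 702 and 822 at 48 h, and at 882 and 970 against 547 and 897 at 96 h. The 24 h groups did not overlap, with the 4OHT libraries higher, nor did the 48 h groups, with the 4OHT libraries lower, and the 96 h groups did. The log2 changes were 0.19 at 24 h, -0.29 ± 0.19 at 48 h (edgeR adjusted p = 0.546) and -0.36 ± 0.19 at 96 h (adjusted p = 0.248). A single library decided the value at 96 h. Without 4OHT replicate 2 it was -0.75 (adjusted p = 0.0043), and without 4OHT replicate 1 it was -0.05.

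The change of Igf2bp1 at 96 h was not shown to differ between the lines (DGCR8 minus Drosha, 0.33 ± 0.27, edgeR adjusted p = 0.623), nor was that of any other member at any time. The share of all genes that differed between the lines was 0.00602% at 24 h, 0.00602% at 48 h and 0.181% at 96 h. Without DGCR8 4OHT replicate 1, the differences of Igf2bp1 (0.65, adjusted p = 0.0448) and Ythdf3 (-0.85, adjusted p = 0.0327) at 96 h were called, and without DGCR8 4OHT replicate 2 the difference of Igf2bp1 was -0.074.

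Several measures set the 96 h libraries apart. The mitochondrial ribosomal RNA mt-Rnr2 took 27.1% of the reads of DGCR8 4OHT replicate 1, 9.55% of replicate 2 and 21.3% of the Drosha 4OHT library, against 15.4% and 12.8% in the untreated DGCR8 libraries and 11.8% and 11.7% in the untreated Drosha libraries. The stem cell markers summed to 1616 CPM in the Drosha 4OHT library against 2425 and 2121 in its controls, and to 2105 and 3460 against 2793 and 3082 in the DGCR8 line. In the Drosha 4OHT library the primitive endoderm markers summed to 87.2 CPM against 61.8 and 62.5, the neuroectoderm markers to 138 against 184 and 187, and the mesoderm markers to 9.28 against 17.7 and 18.7. In the DGCR8 4OHT libraries the neuroectoderm markers summed to 95.3 and 163 CPM against 72.3 and 77.4, the primitive endoderm markers to 30.9 and 47.7 against 41.4 and 45.9, and the mesoderm markers to 1.963 and 3.53 against 3.18 and 3.63. The part of these in the fall of Igf2bp1 was not tested.

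Scaling to library totals in place of TMM moved the median log2 change of all genes at 96 h from -0.01 to -0.30 in the Drosha line and from 0.02 to -0.11 in the DGCR8 line. On that scale 18.3% of the called genes were higher in the Drosha line, against 53.6% with TMM. Igf2bp1 then fell by 0.97 and 4 more members were called lower, Fto by 0.55, Alkbh5 by 0.53, Hnrnpa2b1 by 0.52 and Igf2bp3 by 0.50. In the DGCR8 line at 96 h the share of called genes that were higher was 45.8% on that scale and 61.2% with TMM, with 0 members called on either.

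The other 9 genes were not called at any time in either line. In the sentences that follow, untreated libraries come first and libraries labelled 4OHT second, and hours run from 24 to 96. Of the 10 genes 0 were called in the DGCR8 line at 24, 48 and 96 h, where 0.107%, 1.48% and 13.5% of 14973 genes were called by edgeR and 780, 2235 and 4309 had an unadjusted p under 0.05. The Drosha line had 0 members called at 24 and 48 h, where 0.184% and 2.82% of all genes were called and 1816 and 2758 had an unadjusted p under 0.05. DESeq2 also called 0 members in these comparisons. At 96 h in the Drosha line 8 of 10 genes were lower, with a median log2 change of -0.13 against -0.01 over all genes.

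Among the nuclear readers, Ythdc1 stood in the DGCR8 line at 150 and 139 CPM untreated against 167 and 149 labelled 4OHT at 24 h, at 163 and 183 against 169 and 174 at 48 h, and at 171 and 156 against 190 and 189 at 96 h. In the Drosha line it stood at 124 and 123 against 139 and 138, at 164 and 154 against 155 and 166, and at 170 and 180 against 170 at the same times. The 4OHT groups lay above the controls at 24 h in the Drosha line and at 96 h in the DGCR8 line, by 0.16 and 0.21 on the log2 scale, and neither passed the test.

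Hnrnpa2b1 stood in the DGCR8 line at 791 and 743 CPM against 773 and 808 at 24 h, at 915 and 918 against 895 and 983 at 48 h, and at 865 and 886 against 901 and 811 at 96 h. The Drosha line had 687 and 660 against 641 and 669, then 742 and 747 against 558 and 720, and 784 and 813 against 678. Both 4OHT libraries at 48 h and the library at 96 h lay below their controls in the Drosha line, with a log2 change of -0.22 ± 0.11 at 48 h (edgeR adjusted p = 0.32). Without 4OHT replicate 2 the 48 h change was -0.43 (adjusted p = 0.0228), and without 4OHT replicate 1 it was -0.05.

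Among the cytoplasmic readers, Ythdf2 was lower in both Drosha 4OHT libraries at 24 h, at 76.5 and 77.8 CPM against 94.2 and 95.02. The difference, -0.29 ± 0.10, was not called (edgeR adjusted p = 0.347) but passed with only the compared groups in the fit (adjusted p = 0.0328). At 48 and 96 h Ythdf2 stood at 120 and 113 against 115 and 113, and at 130 and 106 against 135. In the DGCR8 line it stood at 137 and 120 against 118 and 118 at 24 h, at 157 and 139 against 148 and 153 at 48 h, and at 157 and 144 against 187 and 125 at 96 h, with the 4OHT pair at 96 h spanning both controls.

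Ythdf3 was highest in the Drosha 4OHT library at 96 h, at 234 CPM against 186 and 182, a difference of 0.35 ± 0.13 that missed the threshold (edgeR adjusted p = 0.0709). At 24 and 48 h in that line it stood at 153 and 161 against 147 and 146, and at 166 and 156 against 140 and 183. In the DGCR8 line it stood at 176 and 124 against 150 and 169, at 168 and 139 against 154 and 146, and at 196 and 180 against 215 and 132, overlapping at each time. Ythdf1 stood in the DGCR8 line at 101 and 88.9 against 90.2 and 99.2, at 128 and 103 against 111 and 109, and at 128 and 134 against 132 and 98.4. Ythdf1 in the Drosha line stood at 126 and 130 against 118 and 105, at 138 and 147 against 132 and 137, and at 171 and 163 against 162. Ythdf1 in the Drosha line was lower in each treated group than in its controls, with log2 changes of -0.19, -0.08 and -0.04, none called.

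Ythdc2 stayed between 34.8 and 47.6 CPM in all 23 libraries. In the DGCR8 line it stood at 42.8 and 34.8 against 47.6 and 42.4 at 24 h, at 45.0 and 46.3 against 37.6 and 46.7 at 48 h, and at 45.3 and 40.9 against 44.6 and 40.0 at 96 h. In the Drosha line it stood at 43.1 and 45.6 against 42.1 and 43.2, at 44.8 and 46.9 against 41.7 and 42.5, and at 43.7 and 43.2 against 42.3. The 48 h and 96 h treated values of the Drosha line lay below their controls (log2 changes -0.12 and -0.04), not called.

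Of the erasers, Fto stood in the DGCR8 line at 59.6 and 70.3 CPM against 78.0 and 63.0 at 24 h, at 63.1 and 72.7 against 63.2 and 58.7 at 48 h, and at 61.4 and 67.2 against 53.8 and 70.4 at 96 h. Fto in the Drosha line stood at 64.5 and 73.9 against 84.1 and 77.2, at 70.5 and 77.4 against 83.9 and 68.1, and at 75.4 and 88.2 against 67.9. The Drosha line thus had more Fto with 4OHT at 24 h and less at 96 h, by 0.23 and -0.27 on the log2 scale, neither called.

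Alkbh5 stood in the DGCR8 line at 161 and 167 CPM against 176 and 164, at 123 and 136 against 116 and 132, and at 131 and 143 against 120 and 135. In the Drosha line Alkbh5 stood at 124 and 129 against 129 and 125, at 121 and 125 against 141 and 133, and at 140 and 129 against 113. The treated libraries of the Drosha line were above the controls at 48 h and below them at 96 h, by 0.16 and -0.25, not called. Igf2bp3 stood in the DGCR8 line at 121 and 104 against 116 and 121, at 127 and 117 against 125 and 124, and at 125 and 130 against 128 and 138. Igf2bp3 in the Drosha line stood at 113 and 116 against 106 and 108, at 118 and 108 against 111 and 107, and at 118 and 122 against 104. Its treated values in that line lay below the controls at 24 and 96 h (log2 changes -0.10 and -0.21), not called.

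**Figure D3:**
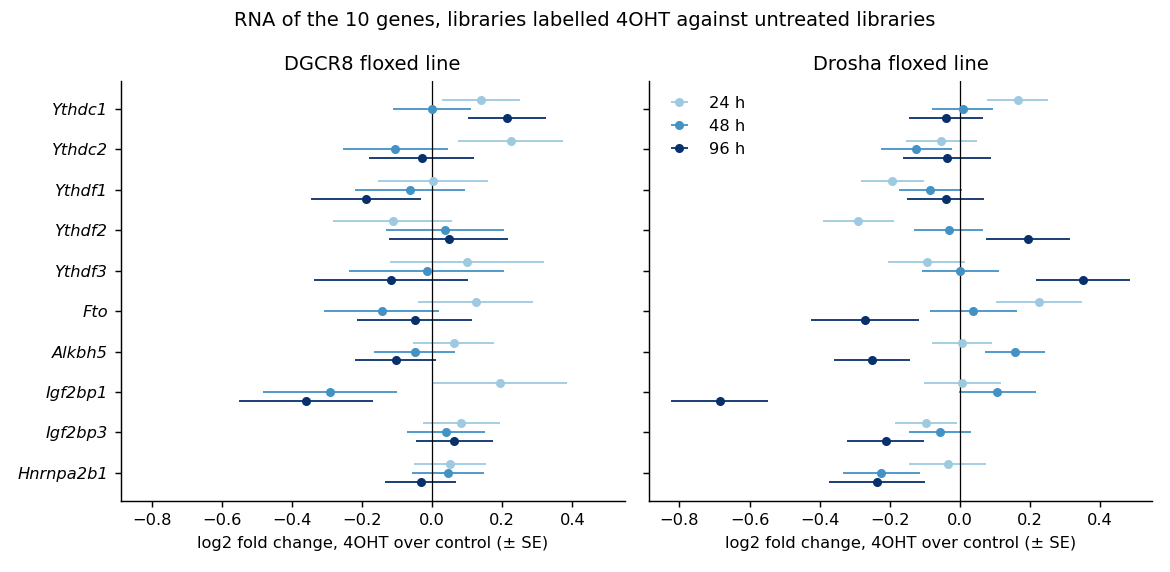
Log2 fold change of each gene in libraries labelled 4OHT over untreated libraries of the same hour, for the DGCR8 and the Drosha floxed line, with 1 point for each of 24, 48 and 96 h and bars of 1 SE of the edgeR fit. Igf2bp1 at 96 h in the Drosha line lies at -0.68, the only point that was called, and Ythdf3 of the same libraries at 0.35.

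The rest of the pathway was read from 4 lists: 9 subunits or relatives of the methyltransferase, 8 other proteins reported to associate with m6A, 12 partners of YTH proteins and 7 other AlkB enzymes, all tested. Between Mettl3 knockout and parental cells Mettl3 was the only gene of the 4 lists called at 37 °C, and none was called at 42 °C. At 96 h in the Drosha line 0 writers rose and 2 fell, Zc3h13, a scaffold of the methyltransferase, by 0.63 (edgeR adjusted p = 0.00909) and Mettl14, the RNA-binding partner of METTL3, by 0.45 (adjusted p = 0.0326). With 23.7% of all genes called in this comparison, 2 of 9 is near the background. The median over the 9 writers was -0.12, against -0.01 over all genes.

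Of the other m6A-associated proteins 2 rose and 3 fell in that comparison, among them Fmr1, the fragile X protein, which rose by 0.67 (edgeR adjusted p = 0.00214), and Prrc2a, which fell by 1.08 (adjusted p = 0.00476). Of the YTH partners 3 rose and 2 fell, among them Meioc, the meiotic partner of YTHDC2, which rose by 1.01 (adjusted p = 0.000199), and Upf1, the helicase of nonsense-mediated decay, which fell by 0.98 (adjusted p = 0.00136). None of the 7 AlkB enzymes was called. At 96 h in the DGCR8 line, where 13.5% of all genes were called, the only call of the 4 lists was Igf2bp2, the paralogue of Igf2bp1 and Igf2bp3, which rose by 0.69 ± 0.16 (adjusted p = 0.0175). The other 4OHT and heat comparisons had no call in these lists.

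METTL3 precipitates were called higher than input over 7 of the 10 genes in the heat set at 37 °C, where 39.8% of all genes were called in either direction. In the set of 2 METTL3 clones they were called higher over 4, where 47.8% of all genes were called. Reads were summed over all windows that overlap a gene, from 3 windows for Hnrnpa2b1 to 72 for Fto. The windows of Fto are shared with Rpgrip1l and 4831440D22Rik, those of Igf2bp1 with Mir3063, those of Igf2bp3 with Malsu1, Gm18010 and D030074P21Rik, and those of Hnrnpa2b1 with Cbx3. Signal in these windows cannot be assigned to 1 gene of a pair.

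In the heat set, cells H4 and H5 gave 1 precipitate and 1 input each at 37 °C. Over Ythdc1 (chr5:86803980-86836659, plus strand) the precipitates had 33.2 and 28.2 CPM and the inputs 8.03 and 7.81. Over Hnrnpa2b1 (chr6:51460434-51470048, minus strand) they had 40.3 and 31.8 against 16.6 and 10.2, and over Ythdf3 (chr3:16183148-16217037) 23.1 and 25.2 against 9.37 and 8.60. For all 3 genes both precipitates lay above both inputs. The log2 ratios were 2.00 ± 0.17 for Ythdc1 (edgeR adjusted p = 0.00587), 1.48 ± 0.27 for Hnrnpa2b1 (adjusted p = 0.00867) and 1.47 ± 0.18 for Ythdf3 (adjusted p = 0.00694).

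Ythdc2 (chr18:44827730-44889720) had 28.7 and 39.4 CPM against 9.37 and 17.2 in input, and Ythdf2 (chr4:132184916-132212256, minus strand) 46.9 and 52.3 against 26.2 and 23.1. Alkbh5 (chr11:60537683-60558512, plus strand) had 62.8 and 48.2 against 40.9 and 23.2, and Ythdf1 (chr2:180904377-180920936, minus strand) 29.0 and 31.2 against 17.5 and 18.4. These 4 genes also had both precipitates above both inputs, with log2 ratios of 1.40 ± 0.35, 1.05 ± 0.17, 0.84 ± 0.27 and 0.79 ± 0.17 (edgeR adjusted p = 0.0192, 0.0078, 0.0434 and 0.012).

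The 3 remaining genes were not called. Fto (chr8:91313367-91668433, plus strand), by far the longest, had 253 and 218 CPM against 337 and 323, a log2 ratio of -0.44 ± 0.17 (edgeR adjusted p = 0.0666). With the cell line as a block it was -0.45 and was called lower (adjusted p = 0.0192). Igf2bp1 (chr11:95957163-96005944) and Igf2bp3 (chr6:49085218-49215469, minus strand) had log2 ratios of 0.26 ± 0.29 and 0.09 ± 0.16.

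So 7 of 10 members were called, all higher, where 39.8% of 30071 genes were called, 6054 of them higher and 5910 lower. The median ratio of the 10 genes was 0.95, against 0.03 over all genes. Without the METTL3 37 °C precipitate of replicate 2 the count fell to 2, Ythdc1 (2.09, adjusted p = 0.0448) and Ythdf3 (1.39, adjusted p = 0.048).

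In the clone set, 4 precipitates and 2 inputs gave smaller ratios. Each of the 2 clones gave 2 precipitates and 1 input. The main fit counted the 4 precipitates as independent, so its p-values do not measure the spread between clones. Over Ythdf2 the precipitates had 22.9, 26.8, 31.2 and 22.8 CPM and the inputs 14.1 and 15.0. Every precipitate lay above both inputs, and the log2 ratio was 0.84 ± 0.12 (edgeR adjusted p = 1.2e-05). Ythdc2 (0.62 ± 0.14, adjusted p = 0.00134), Ythdf1 (0.44 ± 0.11, adjusted p = 0.00306) and Alkbh5 (0.41 ± 0.11, adjusted p = 0.00366) were called too. Over Ythdc1 the values were 16.0, 14.1, 15.9 and 12.2 against 12.1 and 12.0, and the ratio, 0.28 ± 0.13, missed the threshold (adjusted p = 0.0732).

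Hnrnpa2b1 in the clone set had 9.1, 11.7, 12.5 and 8.9 CPM against 12.7 and 14.0 in input, the opposite direction from the heat set. Every precipitate lay below both inputs, with a log2 ratio of -0.33 ± 0.14 (edgeR adjusted p = 0.0547, and 0.0487 with the clone as a block). The 2 sets were fitted apart and their difference was not tested. In the clone set 4 of 10 members were called, where 47.8% of 29790 genes were, 5949 higher and 8288 lower, and the median of the 10 genes was 0.18 against 0.04 over all genes. Scaling to library totals moved that all-gene median to 0.15 and the count of members to 7, with Ythdc1 (0.39), Fto (0.17) and Igf2bp3 (0.19) added; 56.4% of all calls were then higher, against 41.8% with TMM.

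Within the genes the METTL3 reads were not spread evenly, and the window that holds the start of Ythdc1, Ythdf1, Ythdf2 or Alkbh5 was near or below input. The windows lie on a fixed grid, so a start window also holds sequence before the gene and does not measure its 5′ part alone. The start window used here is that of the 5′ end of the gene span. For Hnrnpa2b1 that end is chr6:51470048, and nearly all of its window lies before the gene. Its RefSeq promoter entries have their lower ends at chr6:51469895 and chr6:51469846, so both RefSeq starts lie in the next window inward. The RefSeq start of Igf2bp3 also lies in the next window inward. In the heat set at 37 °C the highest Hnrnpa2b1 window was chr6:51460001-51465000, at the 3′ end, with 1307 precipitate and 50 input reads (log2 ratio 4.70). Its window at the 5′ end of the span stood at -0.02, and the window between them, which holds the RefSeq starts, at 1.71. The highest Ythdc1 window was chr5:86815001-86820000, inside the gene, with 501 and 25 reads (4.32), and its start window stood at 0.05. For Ythdf3 it was chr3:16210001-16215000, with 269 and 10 reads (4.75). In this set these 3 windows had the highest ratios to input of the 10 genes, while by precipitate reads the highest windows of Igf2bp1 (1646 reads) and Ythdf1 (1370 reads) held more.

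For Alkbh5 the highest window was chr11:60545001-60550000 at 2.87, with -0.11 at the start. For Ythdf1 it was chr2:180905001-180910000, toward the 3′ end, at 2.66, with -1.09 at the start. For Ythdf2 it was chr4:132195001-132200000, inside the gene, at 2.01, with -0.23 at the start. The windows of Fto ran from -1.49 to 0.52 and those of Igf2bp3 from -0.75 to 0.95, where the highest Igf2bp3 window had 360 precipitate and 186 input reads. Tested over the start window only, for the 7 genes with a RefSeq start, none was called higher and Ythdf1 was called lower (-0.71, edgeR adjusted p = 0.0376). In the clone set the highest windows were lower, at 1.92 for Alkbh5, 1.60 for Hnrnpa2b1, 1.59 for Ythdf2, 1.49 for Ythdf1 and 1.34 for Ythdc1.

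**Figure D4:**
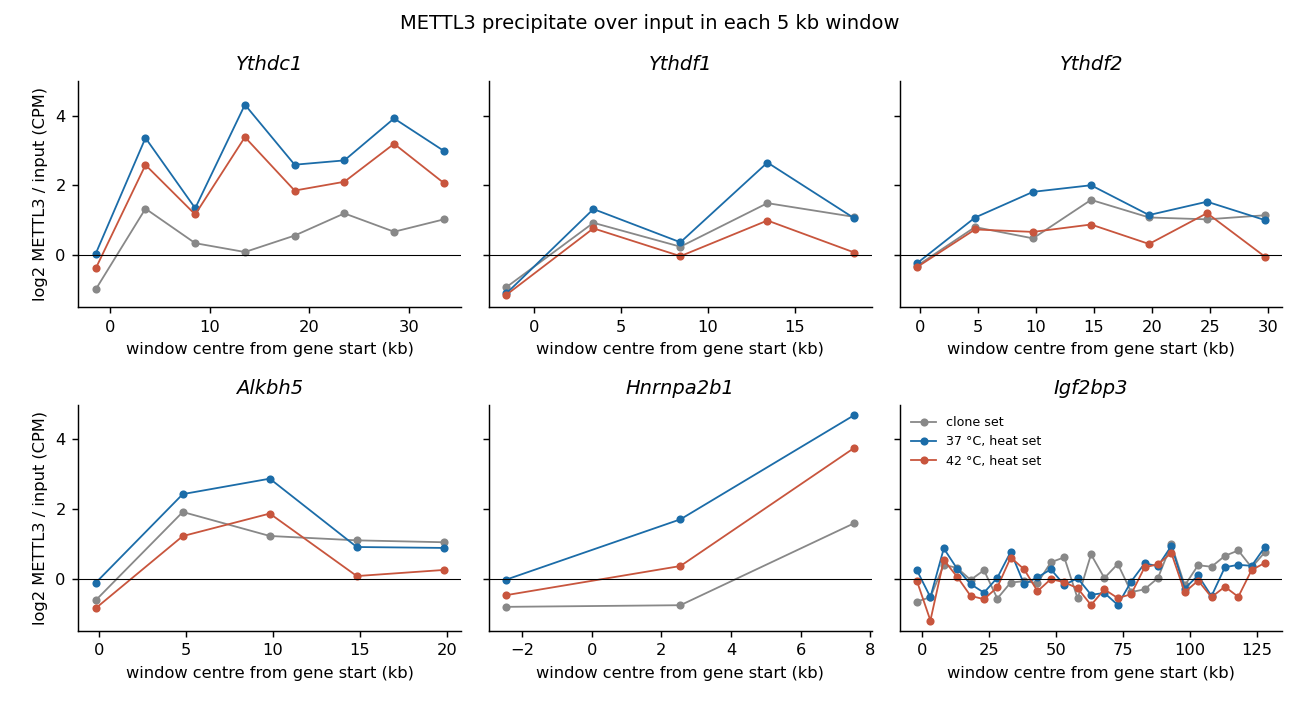
Log2 ratio of METTL3 precipitate to input in each 5 kb window along Ythdc1, Ythdf1, Ythdf2, Alkbh5, Hnrnpa2b1 and Igf2bp3, against distance from the gene start in kb, in the clone set and in the heat set at 37 and 42 °C. In the heat set at 37 °C the start windows of Ythdf1 (-1.09), Ythdf2 (-0.23), Alkbh5 (-0.11) and Ythdc1 (0.05) lie near or below 0. The Hnrnpa2b1 window at the 5′ end of its span lies at -0.02, the window with its RefSeq starts at 1.71 and its highest window at 4.70. Start windows also hold sequence before the gene.

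The other lists were read in the heat set at 37 °C, where 39.8% of all genes were called in either direction. Of the 9 writers 8 were called higher and 0 lower, and of the 8 other m6A-associated proteins 5 and 0. Of the 12 YTH partners the counts were 7 and 0, and of the 7 AlkB enzymes 2 and 2. In the clone set, where 47.8% of all genes were called, the counts were 6 and 0, 4 and 2, 4 and 3, and 2 and 3. The medians in the heat set were 0.90, 0.77, 0.75 and -0.23, beside 0.95 for the 10 genes and 0.03 over all genes.

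After 1 h at 42 °C the fitted METTL3 change was below 0 for 8 genes, from -0.85 to -0.11, and near 0 for Ythdc2 (-0.00058 ± 0.34) and Fto (0.13 ± 0.16), but none passed the test. The CPM printed here are scaled to library totals and the fit to TMM. Over Ythdf1 the H4 and H5 precipitates had 29.0 and 31.2 CPM at 37 °C and 15.9 and 17.5 at 42 °C. Over Hnrnpa2b1 they had 40.3 and 31.8, then 15.5 and 20.6, and over Ythdc1 33.2 and 28.2, then 19.0 and 19.7. In each of these genes both heated libraries lay below both unheated ones. The log2 changes were -0.71 ± 0.17 (edgeR adjusted p = 0.206), -0.85 ± 0.26 (0.37) and -0.52 ± 0.16 (0.385).

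Ythdf2 went from 46.9 and 52.3 to 28.7 and 30.9 CPM (-0.59 ± 0.17, edgeR adjusted p = 0.314), Alkbh5 from 62.8 and 48.2 to 28.1 and 32.7 (-0.72 ± 0.27, adjusted p = 0.481) and Ythdf3 from 23.1 and 25.2 to 15.8 and 18.6. Ythdc2 went from 28.7 and 39.4 to 25.1 and 36.7, and Fto from 253 and 218 to 246 and 218, both within the spread of the pair. Of 10 members 0 were called, where 0.0798% of all genes were called by edgeR and 2695 of 30071, 5 of them members, had an unadjusted p under 0.05. DESeq2 called 1 member, Ythdf1 (-0.73, adjusted p = 0.0137), and 794 genes in all. The median of the 10 genes was -0.55, against 0.08 over all genes.

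Within the genes the METTL3 reads after heat were set against the 37 °C input. The highest windows of Hnrnpa2b1, Ythdc1, Ythdf3 and Alkbh5 were the same as at 37 °C, at 3.76, 3.39, 4.53 and 1.87. The highest Ythdf1 window was also the same and stood at 1.00, and that of Ythdf2 lay nearer the 3′ end, at chr4:132185001-132190000, with 1.21. The depth of 1 library a cell line and temperature limits how small a change in a single window can be resolved, and no window was tested.

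Microprocessor proteins were measured with 1 library a condition, so their ratios have no test and no replicate check. Each is a log2 ratio of CPM over the windows of a gene with a 95% interval for counting error only, and a gene past 1.5-fold is counted. The DGCR8 precipitate crosslinked with DSG had 24.2 CPM over Hnrnpa2b1 against 5.5 in its input (2.14), 18.4 against 6.3 over Ythdf3 (1.55) and 20.0 against 7.0 over Ythdc1 (1.51). Also past 1.5-fold were Ythdc2 (1.01), Ythdf1 (0.80), Ythdf2 (0.79) and Igf2bp1 (0.69), and Fto was lower (-0.78). That is 7 genes higher and 1 lower, where 41.2% of all genes were past 1.5-fold in either direction. The 8 genes became 4 with the parental input in place of the DGCR8 input. Over the start window of the 7 genes with a RefSeq start, Hnrnpa2b1 (1.19), Igf2bp3 (0.63) and Ythdf2 (0.62) were past 1.5-fold. Igf2bp3 was not among the 8, and Ythdc2, Ythdf3 and Igf2bp1 had no start window.

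The Drosha precipitate, set against the same DGCR8 input, had 5 genes higher, where 49.7% of all genes passed: Hnrnpa2b1 (2.10), Ythdc1 (1.70), Ythdf3 (1.33), Ythdc2 (1.02) and Ythdf2 (0.71). The 2 ratios share their input library. Dicer, the cytoplasmic nuclease that acts after the Microprocessor, had none, where 4.41% passed, and its ratios ran from -0.11 to 0.21. The medians of the 10 genes were 0.80 for DGCR8, 0.58 for Drosha and 0.05 for Dicer, against 0.01, -0.10 and 0.00 over all genes. Hnrnpa2b1, Ythdc1 and Ythdf3 were the top 3 of the 10 genes for DGCR8 and for Drosha, as they were for METTL3 in the heat set. In the METTL3 clone set the order was another: Ythdf2 and Ythdc2 had the highest ratios, Hnrnpa2b1 was lowest at -0.33 and Ythdf3 stood at -0.04.

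In the set with Mettl3 knockout cells, DGCR8 from wild type cells over input was past 1.5-fold for 3 genes, where 20.1% of all genes passed: Ythdc1 (20.4 against 11.2 CPM, 0.86), Hnrnpa2b1 (15.0 against 9.2, 0.71) and Ythdf3 (16.5 against 10.1, 0.71). In knockout over wild type cells 0 of 10 passed, where 6.69% of all genes did. That ratio sets 1 precipitate against another, with no input from the knockout cells. It shares the wild type precipitate with the ratios to input. The lowest was Ythdf2, at 18.8 against 24.5 CPM (-0.38, 95% counting interval -0.56 to -0.20), followed by Hnrnpa2b1 (-0.31) and Igf2bp1 (-0.29). Fto was the highest at 0.18, and the median of the 10 genes was -0.08 against -0.02 over all genes.

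DGCR8 of the heat set at 37 °C had the largest ratios of all precipitates for Hnrnpa2b1, 88.7 against 10.5 CPM in input (3.07, 95% counting interval 2.94 to 3.20), and for Ythdc1, 67.1 against 8.11 CPM (3.05, 2.90 to 3.20). Ythdf3 followed at 1.99, Ythdc2 at 1.33, Ythdf1 at 1.22, Igf2bp1 at 1.14 and Ythdf2 at 0.89, while Fto stood at -0.40. So 7 genes were past 1.5-fold, all higher, where 54.1% of all genes were past it in either direction.

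After heat the DGCR8 precipitate had lower CPM over these genes. The heated library held 79201858 reads in total and the 37 °C library 20372438. In raw reads only Hnrnpa2b1 was lower after heat, at 1381 against 1808, and the other genes were higher. The lower values below are thus shares of the library total. Hnrnpa2b1 had 17.4 CPM against 88.7 at 37 °C, a log2 ratio of -2.35 (95% counting interval -2.45 to -2.25), and only 0.767% of 29459 genes had a lower one. Ythdc1 had 19.9 against 67.1 CPM (-1.76). Igf2bp1 (-1.41), Ythdf1 (-1.22), Ythdf3 (-1.05), Ythdf2 (-0.71), Alkbh5 (-0.68) and Igf2bp3 (-0.60) were also past 1.5-fold lower, and Ythdc2 (-0.33) and Fto (-0.08) were not. Thus 8 of 10 were past 1.5-fold, all lower, where 41.4% of all genes were past it in either direction, and all 10 lay below the all-gene median of -0.07. With 1 library at each temperature, this compares 2 libraries and not the conditions. The 37 °C precipitate is also the numerator of the 37 °C ratios to input. The 2 sets of ratios are thus not independent, and a high value in that library raises the first and lowers the second. The METTL3 precipitates of the same set had fitted changes below 0 over 8 of these 10 genes after heat, as given above, with no call by edgeR.

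**Figure D5:**
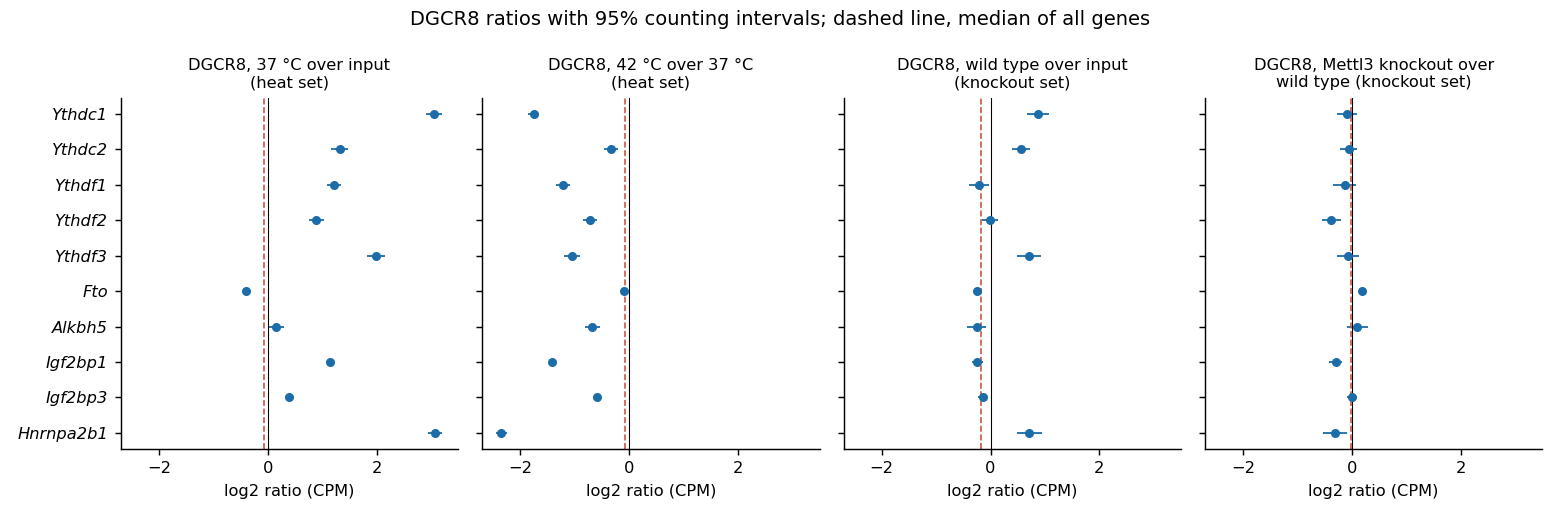
Log2 ratios of CPM for DGCR8 in the heat set (37 °C over input, 42 °C over 37 °C) and in the knockout set (wild type over input, Mettl3 knockout over wild type), 1 point a gene with its 95% counting interval, and a dashed line at the median of all genes. After heat all 10 genes lie below the all-gene median of -0.07, from -0.08 for Fto to -2.35 for Hnrnpa2b1, while in the knockout panel they lie between -0.38 and 0.18. The 37 °C precipitate enters both heat-set panels and the wild type precipitate both knockout-set panels.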

How the data were processed

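Reads were deposited by the authors as raw counts, per gene for RNA and per 5 kb window for ChIP. RNA was depleted of ribosomal RNA with Ribozero and made into libraries with ScriptSeq v2, per the labels' protocols, and the submitters' processing notes name Bowtie and the build mm10. A version of Bowtie, the strand counted and the annotation are not given in the sources used here. A symbol was found for 37607 of the 39017 gene identifiers and none for 1410. Of the ChIP columns, 1 column of per-sample values was not used, because its name did not match a single sample. Titles were followed where source names conflicted.

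Counts were tested with the quasi-likelihood test of edgeR 4.0.16 (limma 3.58.1, R 4.3.3), with TMM scaling, filterByExpr, 1 coefficient a group and p-values adjusted by Benjamini-Hochberg across every gene tested (called under 0.05). The floxed lines were fitted apart, their differences in 1 joint fit of 23 libraries, the 12 heat libraries in 1 fit and the METTL3 libraries by set, with window counts summed over each gene span. The wide fits were tested on simulated data. DESeq2 1.42.0, library totals, no filter, the compared groups alone, mitochondrial genes left out, the start window, other inputs, blocks and single omissions were the alternatives. The start window was that of the 5′ end of the gene span. For Hnrnpa2b1 and Igf2bp3 the RefSeq starts lie in the neighbouring window. ChIP conditions with 1 library had no test: CPM ratios were taken for genes with at least 50 reads in both libraries together, with 95% exact binomial counting intervals. Tables and figures used Python 3.11.15 with pandas 2.3.3 and scipy 1.17.1.

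The 10 members, the 4 pathway lists, the marker lists and the tests were chosen with earlier results of these data known. All members were named. Of each list, up to 2 called genes with the smallest p were named per comparison, and of genes most like a member the 3 with the highest Pearson r of log2 CPM, among those with mean log2 CPM of 4 or more. In the heat RNA set the 37 °C and 42 °C libraries of a line share its cells. Their deviations from the group means correlated at 0.48 for the parental cells and at 0.72, 0.74, 0.73 and 0.64 for lines 1d1, 3xU, 1d2 and 2c4d over 15635 genes. The line was therefore used as a block in an alternative fit of the heat effects and their difference. The contrasts of knockout against parental cells had no such fit and counted the libraries of a line as independent.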

Additional observations from a re-analysis of the deposited data

Results flagged for a closer look

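Fto RNA in knockout line 1d1 after heat stood at 90.3 TMM-scaled CPM, far from the other knockout lines of that group at 45.0, 50.3 and 52.5. The same line was also highest at 37 °C, at 107.1 against 47.2, 52.2 and 57.6. A library this far from 3 others was looked for in 20 groups of 4 values (10 genes at each temperature), and chance gives about 1 in 20. The cause was not tested.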

How the results depend on the processing

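Over the alternatives, the counts of called members stayed within 1.5 times of the reported count in 179 cases and moved further in 28. The 179 include counts of 0 that stayed at 0, and most RNA comparisons had a reported count of 0. This tally thus says little of the comparisons where members were called. Without the filter on low counts 1 member was called in the DGCR8 line at 96 h (Igf2bp1, -0.38, edgeR adjusted p = 0.0346). With only the compared groups in the fit 1 was called in the Drosha line at 24 h, and 0 and 0 between knockout and parental cells at 37 and 42 °C. With library totals 5 were called in the Drosha line at 96 h and 7 for METTL3 in the clone set. DESeq2 called 1 member for METTL3 after heat. Over the start window 1 was called for METTL3 at 37 °C, and 3, 1, 4 and 2 members were past 1.5-fold for DGCR8 (DSG), DGCR8 in knockout over wild type cells, DGCR8 at 37 °C and DGCR8 after heat. With the parental input 4 were past it for DGCR8 (DSG).

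Directions turned for the start window in place of the whole gene. In the METTL3 clone set they did for Ythdc1 (-0.51), Ythdf1 (-0.46), Fto (-0.55), Alkbh5 (-0.14) and Igf2bp3 (-0.17), in the heat set at 37 °C for Ythdf1 (-0.71) and after heat for Ythdf1 (0.12). For DGCR8 (DSG) Ythdf1 stood at -0.18 and for Drosha Ythdc1 at -1.09, where the start-window medians of all genes were -0.12 and -0.29. For DGCR8 in wild type cells Ythdc1 stood at -0.33 and Hnrnpa2b1 at -0.15, both above the all-gene median of -0.38. For DGCR8 at 37 °C Ythdf1 stood at -0.76 and Ythdf2 at -0.62 (all genes -0.28), and for DGCR8 after heat Ythdf2 at 0.19 (all genes -0.20). A start window below input was thus not particular to these genes. Ratios within 1.5-fold over the whole gene turned too: for Drosha Ythdf1 (0.18 to -2.02) and Alkbh5 (0.26 to -0.98), for Alkbh5 with DGCR8 (DSG) (0.19 to -0.57) and DGCR8 at 37 °C (0.16 to -0.58), for Igf2bp3 in wild type cells (-0.14 to 0.69), and in knockout over wild type cells for Ythdf1 (-0.13 to 0.27), Fto (0.18 to -0.21) and Igf2bp3 (0.000635 to -0.83). Single omissions turned Igf2bp1 in the line difference at 96 h (-0.074 without DGCR8 4OHT replicate 2, up to 0.65 without replicate 1) and for METTL3 at 37 °C (-0.20 without input replicate 2, up to 0.78 without input replicate 1).

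With single libraries left out, called members ranged from 0 to 1 in the DGCR8 line at 96 h and the Drosha line at 48 h, 0 to 2 for the line difference at 96 h, 0 to 2 and 0 to 1 between knockout and parental cells at 37 and 42 °C, 3 to 5 for METTL3 in the clone set and 2 to 7 in the heat set. They stayed at 1 in the Drosha line at 96 h and at 0 in the other comparisons tested.

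Same-numbered floxed libraries did not deviate together at every hour (r = -0.32, 0.23 and 0.18 at 24, 48 and 96 h in the DGCR8 line, -0.03 and -0.11 at 24 and 48 h in the Drosha line), so the numbers were not taken to pair them. With the replicate number as a block, 0, 0 and 0 members were called in the DGCR8 line and 0, 0 and 1 in the Drosha line, and 19, 273, 2166, 45, 358 and 3502 of all genes. With the numbers crossed, 10 genes were called in the DGCR8 line at 24 h and 710 in the Drosha line at 48 h, none of them members. With the cell line as a block, 119, 1058 and 2 genes were called for heat in parental cells, heat in knockout lines and their difference, 0 of them members. The line or clone as a block gave 5 members for METTL3 in the clone set, 8 in the heat set at 37 °C and 0 after heat.

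All-gene counts moved by more than 1.5 times in several settings. DESeq2 called 755 and 713 genes between knockout and parental cells (edgeR 141 and 100), 30 in the DGCR8 line at 24 h (16), 6 and 100 for the line difference at 48 and 96 h (1 and 30). Library totals gave 7, 29 and 901 in the DGCR8 line (16, 221 and 2017), 0 and 4 for the line difference at 24 and 96 h (1 and 30), 18 for heat in knockout lines (29) and 86 for METTL3 after heat (24). No filter gave 56 and 458 in the DGCR8 line at 24 and 48 h, 355 and 933 in the Drosha line (30 and 458), 12, 58 and 427 for the line difference, 22 and 46 for heat (3 and 29), 383 and 380 between knockout and parental cells, and 24 for the difference of the heat effect (0). The compared groups alone gave 0 in the DGCR8 line at 96 h, 748 and 136 in the Drosha line at 24 and 48 h, 0 for the line difference at 96 h, 13 for heat in knockout lines, and 4 and 1 between knockout and parental cells. The line block gave 509 for METTL3 after heat, and the start window 9299 and 4085 for METTL3 over input (14237 and 11964).

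Library totals moved the share of calls that were higher from 46.1% to 59.0% and from 52.0% to 62.1% between knockout and parental cells at 37 and 42 °C, from 83.7% to 100% in the DGCR8 line at 48 h, from 63.3% to 75% for the line difference at 96 h and from 33.3% to 14.0% for METTL3 after heat. They moved the all-gene median from 0.03 to 0.19 for the line difference at 96 h and from 0.03 to 0.14 for METTL3 at 37 °C. The cause of none of these was tested. Groups of 1 or 2 libraries, no precipitate of untagged cells and no heated input limit every chromatin value, and ChIP counting intervals leave out the spread between cultures.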

Other observations

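The genes whose RNA levels ran most nearly in parallel with a member were looked up over the 23 floxed libraries and, apart from them, over the 12 heat libraries. These are descriptions over libraries that share lines, hours and depth. For Hnrnpa2b1 in the floxed set they were Hnrnpd (Pearson r = 0.91), Hnrnpu (0.90) and Hnrnpr (0.89), all genes of other nuclear ribonucleoproteins. For Ythdf2 they were Blzf1 (0.97), Usp1 (0.96) and Dhx15 (0.95), for Ythdf3 the first was Fbxo30 (0.96), for Ythdc1 Prpf4b (0.95) and for Igf2bp1 Rapgef1 (0.94). Ythdc2 had no close match, with Tlk2 the nearest at 0.56.

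In the heat set the nearest to Ythdc1 were Akap2 and Pakap (0.98 each, overlapping loci whose reads cannot be told apart) and Ece1 (0.96). The nearest to Ythdf2 were Zbtb8a (0.97), Mul1 (0.96) and Jam3 (0.95). Trim59 was near Ythdf3 in both sets, at 0.94 and 0.92.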
